A study of Mus musculus with 35 samples.

Results

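Resident Kupffer cells (ResKCs), the CLEC4F+ TIM4+ macrophages of the liver, were profiled by bulk RNA-seq after 12 weeks of feeding. The comparison holds 12 of the 35 samples of the series, namely 7 from mice on a standard diet (SD) and 5 from mice on a Western diet (WD), all taken by the diet and the time in their titles. The diet field of the 5 WD samples reads standard diet and goes against their titles, and the titles, with which the names of the count tables agree, were followed. All 12 samples came from C57Bl/6J mice, which the methods of the study give as males put on the diets at 5 weeks of age. The WD was rich in fat and cholesterol, with fructose and sucrose in the drinking water. Another 12 ResKC samples, 6 on SD and 6 on WD for 24 weeks, served as a comparison. The remaining 11 samples of other macrophages at 24 weeks entered the gene filter, the estimate of the spread and the correlation with hepatocyte markers. Nothing in the labels says whether a sample is 1 animal or a pool, so the p-values measure the spread between these samples.

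Kupffer cells sit in the liver sinusoids, where they clear particles, old red cells and lipoproteins from the blood. Macrophages that take up much lipid, in fat tissue, arteries and fatty liver, are known to induce a shared set of genes for lipid handling, lysosomes and matrix breakdown, often called the lipid-associated macrophage program. A diet of this kind brings metabolic-associated fatty liver disease (MAFLD), in which ResKCs are gradually joined and replaced by cells derived from monocytes. The comparison at 12 weeks asks what the ResKCs themselves express early in that course. In sorted bulk samples, fewer cells that express a gene and less RNA of it per cell cannot be told apart.

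The 12 libraries held 12542754 to 14848994 counts, so a gene with 3 counts stands at 0.202 to 0.239 CPM, the count of a gene scaled to library size. The genes of the proteins that the sort selected on were high in every sample. Clec4f ranged from 14198 to 15770 CPM on SD and from 11822 to 17495 on WD, and Timd4 from 948 to 1358 and from 861 to 1179. The names of the alignments behind the counts are of 2 kinds. SD replicates 1 to 3 and all 5 WD replicates bear the first naming scheme, and SD replicates 4 to 7 the second. Dissociation of tissue is known to induce immediate-early and heat-shock genes, and hepatocytes are the main other cell of the liver. Summed over 24 immediate-early and heat-shock genes, SD replicates 1 to 3 stood at 10986 to 16973 CPM, SD replicates 4 to 7 at 2940 to 7558 and the WD replicates at 3928 to 7545. Summed over 26 hepatocyte markers, SD replicates 1 to 6 stood at 747 to 3680 CPM and the WD replicates at 1931 to 6620. SD replicate 7 had the highest hepatocyte sum of the 12, 6879 CPM, and the lowest early-response sum, 2940 CPM. No hepatocyte marker was at 0 in all 12 libraries. Summed over 16 monocyte and neutrophil markers, the SD replicates stood at 196 to 311 CPM and the WD replicates at 201 to 344, and the neutrophil markers Ly6g, Mpo and Cxcr2 were at 0 in all 12. Of the 9 of these 16 that could be tested, 7 were higher on the WD (53.3% of all genes tested) with a median log2 difference of 0.20. When SD replicate 7 was left out, 9 were higher, against 7177 of all 13421 genes, with a median of 0.62. None was called in edgeR either way, and 1 and 2 were higher at an unadjusted p under 0.05, against 5.26% and 7.64% of all genes tested. The 16 endothelial markers summed to 678 to 2416 CPM on SD and 766 to 1576 on WD, with 16 lower, against 46.7% of all genes tested. Their median log2 difference was -0.37, which was 0.25 against SD replicates 1 to 3 and -0.73 against SD replicates 4 to 7. The medians were 0.25 for 14 stellate cell and fibroblast markers and 0.45 for 3 cholangiocyte markers. That of the stellate cell and fibroblast markers was -0.087 against SD replicates 1 to 3 and 0.46 against SD replicates 4 to 7. Its sign thus turned with the SD samples. No endothelial, stellate cell, fibroblast or cholangiocyte marker was called in edgeR with or without SD replicate 7. Because SD replicate 7 resembled the WD samples in many genes, the calls, the gene lists and the genes of 24 weeks are given with and without it. That choice was made from its values, so what is called without it is a description of the other 11 samples and no independent support for a diet effect.

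**Figure D1:**
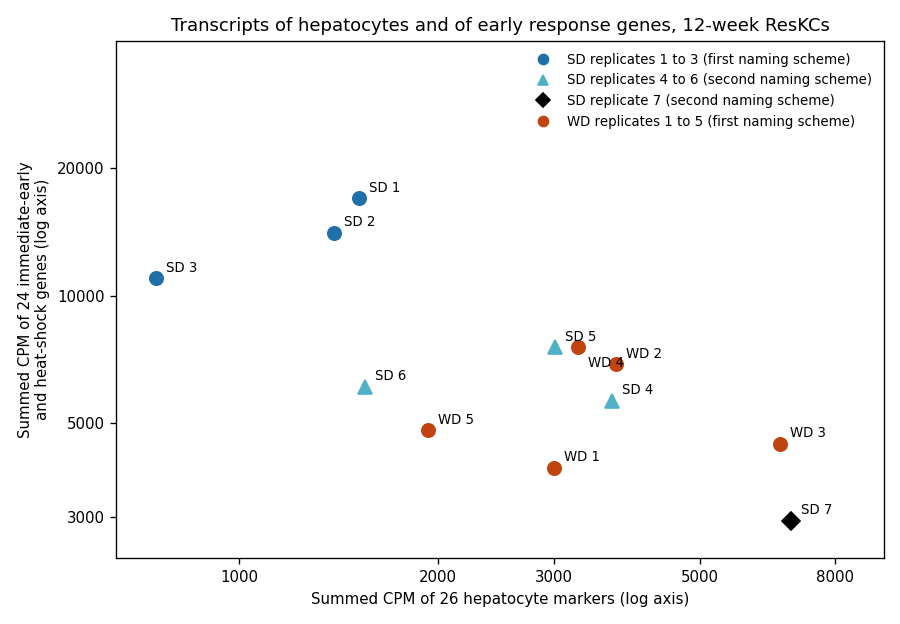
Summed CPM of 26 hepatocyte markers (x axis, log scale) against summed CPM of 24 immediate-early and heat-shock genes (y axis, log scale), 1 point for each 12-week ResKC sample, with colour and shape for diet and alignment naming scheme. SD replicates 1 to 3 lie at the upper left, at 10986 CPM or more on the y axis, and SD replicate 7 lies at the lower right beside WD replicate 3.

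Across all 12 samples, 5 of 13421 genes tested were called, which is 0.0373% (edgeR's quasi-likelihood test, Benjamini-Hochberg adjusted p under 0.05). Lpl, which encodes lipoprotein lipase, and Il1rn, which encodes the interleukin-1 receptor antagonist, rose on the WD. Klf3, a transcriptional repressor of the Kruppel-like family, Arid4a, a subunit of SIN3 histone deacetylase complexes, and Ripor1 fell. The 2 higher genes are 0.0149% of all tested and the 3 lower genes 0.0224%. All 5 had the same adjusted p of 0.0474, close to the threshold, and none changed by more than 1 on the log2 scale, the limit of the study's own analysis. Differences are log2 fold changes, WD minus SD, with the standard error (s.e.) of the fit. At an unadjusted p under 0.05 there were 1172 genes (8.73%), 706 higher (5.26%) and 466 lower (3.47%).

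**Figure D2:**
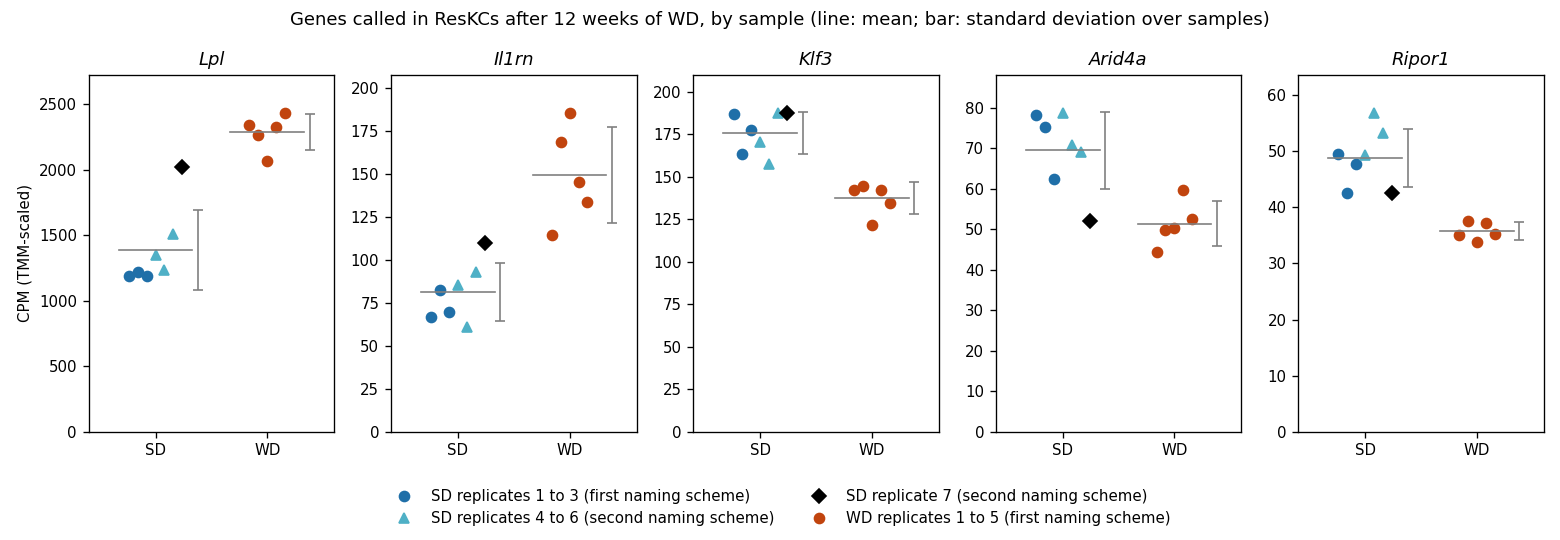
CPM of the 5 called genes in each 12-week ResKC sample, by diet, with the mean of each diet as a line and the standard deviation over samples as a bar. For Lpl and Il1rn the WD samples lie above all SD samples, for Klf3 and Ripor1 below all, and for Arid4a SD replicate 7 lies within the WD samples.

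Lpl (chr8:68880491-68907448, GRCm38, plus strand) frees fatty acids from circulating triglyceride. Lpl was measured at 1185, 1217, 1188, 1352, 1237 and 1512 CPM in SD replicates 1 to 6, at 2018 in SD replicate 7 and at 2341, 2263, 2065, 2325 and 2432 in the WD replicates. The WD samples lay above all SD samples, and SD replicate 7 lay closer to them than to any other SD sample. The means were 1387 ± 302 CPM (s.d., n = 7) and 2285 ± 137 CPM (s.d., n = 5), a log2 difference of 0.72 ± 0.14 (s.e.), or 1.65-fold. Without SD replicate 7 the difference was 0.83 ± 0.14 (edgeR adjusted p = 0.00148).

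Il1rn (chr2:24336853-24351494, plus strand) encodes the secreted protein that occupies the interleukin-1 receptor without signalling. Il1rn was measured at 66.8, 82.8, 69.7, 85.7, 61.0 and 92.8 CPM in SD replicates 1 to 6, at 109.9 in SD replicate 7 and at 115, 168, 186, 145 and 134 in the WD replicates. The diets did not overlap, although SD replicate 7 and WD replicate 1 lay within a few CPM of each other. The means were 81.3 ± 17.0 CPM (s.d., n = 7) and 149.5 ± 28.0 CPM (s.d., n = 5), a log2 difference of 0.88 ± 0.17, or 1.84-fold. Without SD replicate 7 it was 0.97 ± 0.17 (edgeR adjusted p = 0.00406).

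The 3 genes that fell differed by less than 0.5 on the log2 scale. Klf3 (chr5:64803388-64832901, plus strand) was 187, 163, 177, 171, 157, 187 and 187 CPM in SD replicates 1 to 7 and 142, 145, 122, 142 and 135 CPM in the WD replicates. Here SD replicate 7 lay among the highest SD samples, and the diets did not overlap. The log2 difference was -0.36 ± 0.070 with all samples, and -0.34 ± 0.073 without SD replicate 7 (edgeR adjusted p = 0.0201). Klf3 overlaps the antisense model Gm20033, and the sources do not say whether the counting used strand.

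Arid4a (chr12:71015990-71098592, plus strand) was 78.2, 75.2, 62.3, 78.7, 70.8, 69.0 and 52.0 CPM in SD replicates 1 to 7 and 44.3, 49.9, 50.3, 59.7 and 52.4 CPM in the WD replicates. The diets overlapped only through SD replicate 7. The log2 difference was -0.44 ± 0.087, and -0.50 ± 0.078 without that replicate (edgeR adjusted p = 0.00148). Ripor1 (chr8:105605255-105622219, plus strand) was 49.6, 42.6, 47.7, 49.3, 56.8, 53.2 and 42.6 CPM on SD and 35.1, 37.5, 33.8, 37.2 and 35.3 on WD, with no overlap. Its log2 difference was -0.45 ± 0.089, and -0.48 ± 0.091 without SD replicate 7 (edgeR adjusted p = 0.00681). Agrp overlaps Ripor1 on the other strand. Over all genes, 67 (0.499%) had diets that did not overlap with all 12 samples, and 212 (1.58%) without SD replicate 7.

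The number of genes called depended on which SD samples entered. Leaving out SD replicate 7 raised it from 5 to 84 (0.626%), of which 71 were higher (0.529%) and 13 lower (0.0969%), and all 5 genes above were among them. Of the 84, 66 differed by more than 1 on the log2 scale. Leaving out any other of the 12 samples gave 0 calls in edgeR, with 926 to 1205 genes at an unadjusted p under 0.05. Against SD replicates 1 to 3, which share the naming scheme of the WD samples, 234 genes were called (1.74%), 185 higher (1.38%) and 49 lower (0.365%), and 65 of them were among the 84. Against SD replicates 4 to 7, 0 were called, with 1088 at an unadjusted p under 0.05. No WD sample at 12 weeks carries the second scheme, so there is no comparison within it. For Lpl the difference was 0.92 against SD replicates 1 to 3 and 0.58 against SD replicates 4 to 7, for Il1rn 1.02 and 0.77, for Klf3 -0.37 and -0.36, for Arid4a -0.50 and -0.40, and for Ripor1 -0.39 and -0.50 on the log2 scale. With the mean of the hepatocyte markers as a covariate none of the 5 was called, although their log2 differences moved by less than 1 s.e., to 0.68 for Lpl, 0.81 for Il1rn, -0.36 for Klf3, -0.42 for Arid4a and -0.44 for Ripor1 (edgeR adjusted p = 0.0592 for Lpl, Il1rn, Klf3 and Ripor1 and 0.0647 for Arid4a). With this covariate 6 other genes were called, among them Mmp12 and Bhmt, Mup9 and Mup18, which are typical of hepatocytes. The alignment numbers of WD replicates 1 and 2 lie beside those of samples of monocyte-derived Kupffer cells that the labels place at 24 weeks, so the time of these 2 rests on their titles. With both left out, 0 genes were called in edgeR, with 1291 at an unadjusted p under 0.05, and the log2 differences were 0.71 for Lpl, 0.93 for Il1rn, -0.40 for Klf3, -0.36 for Arid4a and -0.46 for Ripor1. The 5 genes kept their direction against either set of SD samples, with the 2 higher genes further apart from the SD samples of the first scheme.

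**Figure D3:**
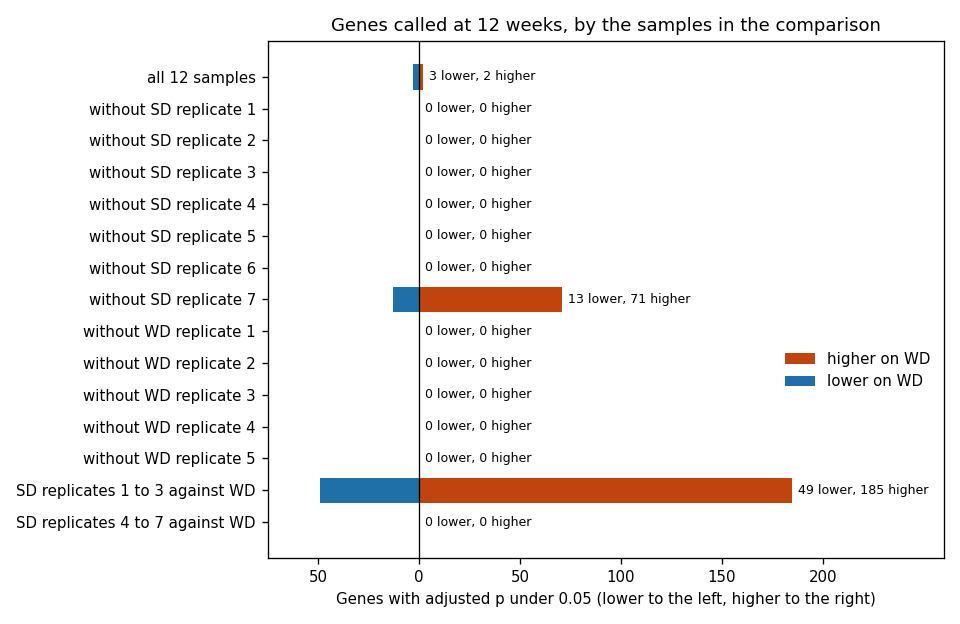
Number of genes called at 12 weeks (x axis, lower on the WD to the left and higher to the right of 0) for the comparison of all 12 samples, for each sample left out in turn, and for WD against the SD samples of either naming scheme. With SD replicate 7 left out 84 genes were called, and with any other sample left out 0.

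The higher genes called without SD replicate 7 comprised macrophage genes and transcripts typical of hepatocytes. To separate them, each gene was correlated with the mean of the 26 hepatocyte markers over the 23 samples outside the 12-week comparison, after removing group means, and called a follower at a Pearson r over 0.7. These samples share libraries among all genes, so this r is a description. Of the 71 higher genes, 26 were followers, against 394 of all 13421 (2.94%), and 45 were not. None of the 13 lower genes was a follower. The followers included Bhmt, which encodes a hepatic methyltransferase, and Mup18, a major urinary protein gene. Bhmt was 2.88, 4.29, 0.516, 8.66, 11.7 and 2.99 CPM in SD replicates 1 to 6, 115 in SD replicate 7 and 53.9, 47.6, 113, 50.1 and 33.1 in the WD replicates. The value in SD replicate 7 was thus above every WD value. In all, 7 Mup genes were called, of which 3 passed the r limit, so that the 45 genes still hold transcripts typical of hepatocytes. Mup9 and Mup18 are members of a family of near-identical copies whose reads cannot be assigned with certainty. Mup9 was 0.0738 to 0.282 CPM in SD replicates 1 to 6, some of these at or below 3 counts, 4.96 in SD replicate 7 and 2.76 to 26.5 on WD. The predicted gene Gm5096, at up to 0.282 CPM in SD replicates 1 to 6, 3.83 in SD replicate 7 and 1.00 to 3.85 on WD, was a follower too. With the mean of the hepatocyte markers as a covariate and SD replicate 7 left out, 26 genes were called, of which 18 were no followers and 22 were among the 84. The part of hepatocyte RNA in the other calls was not tested.

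Among the macrophage genes, those with the smallest adjusted p without SD replicate 7 included Mmp12, Cd63, Mmp13, Fam20c, Ocstamp and Gpnmb, besides Lpl and Il1rn. Mmp12 (chr9:7344381-7369499, plus strand) encodes macrophage elastase. Mmp12 was measured at 4.21, 8.13, 9.88, 87.6, 23 and 7.11 CPM in SD replicates 1 to 6, at 176 in SD replicate 7 and at 143, 325, 443, 269 and 210.5 in the WD replicates. SD replicates 1 to 3 and 6 were low, SD replicate 4 intermediate and SD replicate 7 within the WD range. The log2 difference was 2.62 ± 0.61 with all samples (edgeR adjusted p = 0.0938) and 3.57 ± 0.57 without SD replicate 7 (edgeR adjusted p = 0.00148). Mmp13 (chr9:7272514-7283331, plus strand), a collagenase, was 3.40, 5.04, 1.70, 13, 8.74 and 0.854 CPM in SD replicates 1 to 6, 28.4 in SD replicate 7 and 30.3, 26.5, 82.1, 48.5 and 16.8 in the WD replicates. Both genes were highest in WD replicate 3 and, among SD replicates 1 to 6, in SD replicate 4. The log2 difference of Mmp13 was 2.22 ± 0.52 with all samples (edgeR adjusted p = 0.0938) and 2.90 ± 0.50 without SD replicate 7 (edgeR adjusted p = 0.00291).

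**Figure D4:**
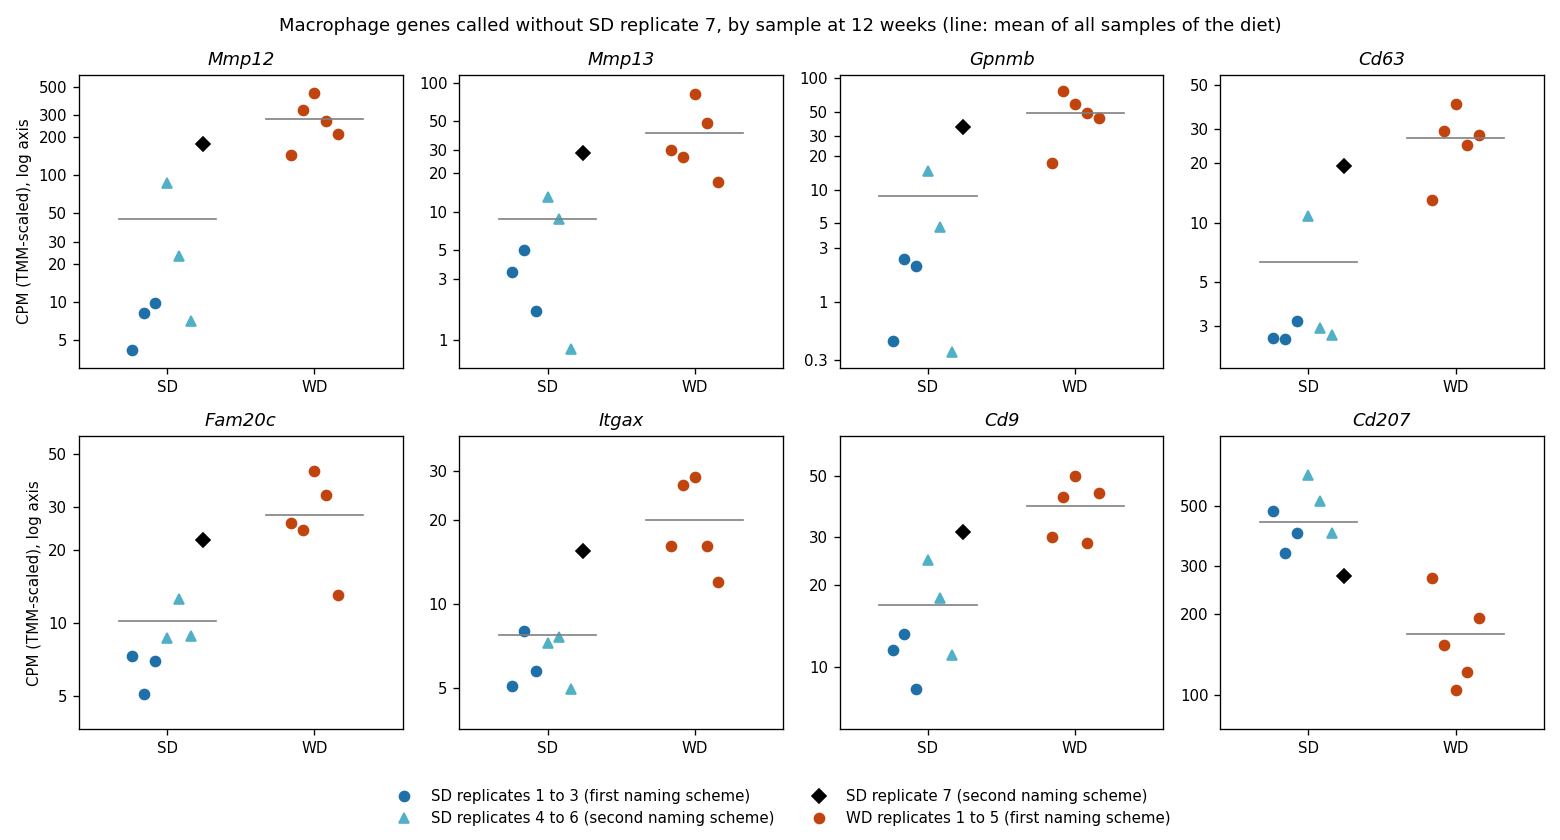
CPM (log axis) of 8 macrophage genes in each 12-week ResKC sample, by diet, with the mean of each diet as a line. SD replicate 7 stands above the other SD samples in the 7 genes that were higher on the WD and below them in Cd207, and without it the diets do not overlap in any of the 8.

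Gpnmb, a glycoprotein of lysosomes and melanosomes, was 0.443, 2.41, 2.07, 14.7, 4.60 and 0.356 CPM in SD replicates 1 to 6, 36.5 in SD replicate 7 and 17.4, 76.2, 58.0, 48.4 and 43.4 on WD. Its log2 difference was 2.47 ± 0.67 with all samples (edgeR adjusted p = 0.190) and 3.56 ± 0.65 without SD replicate 7 (edgeR adjusted p = 0.00499). Cd63, a tetraspanin of late endosomes, was 2.59, 2.56, 3.17, 10.8, 2.91 and 2.70 CPM in SD replicates 1 to 6, 19.4 in SD replicate 7 and 13.1, 29.2, 40.1, 24.9 and 27.8 on WD (edgeR adjusted p = 0.0859 with all samples and 0.00148 without SD replicate 7). Its processed copy Cd63-ps was called as well, and the reads of the 2 cannot be told apart. Fam20c, a kinase of secreted proteins, ranged from 5.12 to 12.6 CPM in SD replicates 1 to 6 and from 13.1 to 42.2 on WD, with SD replicate 7 at 22.0. Ocstamp, a membrane protein that osteoclasts need to fuse, was at most 0.915 CPM in SD replicates 1 to 6, 2.34 in SD replicate 7 and 1.46 to 6.83 on WD. Dcstamp, its partner in fusion, and Ccl9, a chemokine, were called as well and are named after their values were seen. Dcstamp was at most 0.211 CPM in SD replicates 1 to 6, near or below the level of 3 counts. It was 0.354 in SD replicate 7 and 0.694 to 1.57 on WD (edgeR adjusted p = 0.0897 with all samples and 0.0146 without SD replicate 7). Ccl9 was 7.45 to 20.9, 24.5 and 24.5 to 64.6 CPM in the same order.

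The values of SD replicate 7 in these genes describe why it was left out and test nothing. It was nearer to the WD mean than to the mean of the other SD samples in 51.7% of all genes tested. Of the 45 higher genes that did not follow the hepatocyte markers, it was nearer to the WD mean in 42, and above all 6 other SD samples in 42. In the 26 followers it was nearer to the WD mean in 26. In the 13 lower genes it was nearer in 5. The median log2 difference of the 45 genes was 2.58 without SD replicate 7 and 1.43 with it, while that of the 13 lower genes was -0.46 without it and -0.41 with it. Whether these shares differ was not tested. The labels give it as a standard diet sample.

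The promoters of 5 genes named here held the letters of the AP-1 site, TGACTCA or its reverse complement TGAGTCA, in the 250 bases before the RefSeq start of the gene. The sequences are from RefSeq on GRCm38.p6 and read 5′ to 3′ on the strand of the gene, with the matched letters in capitals. They are printed because these genes were called with all samples or without SD replicate 7 and were higher (Il1rn, Mmp12, Mmp13 and Itgax) or lower (Cd207) on the WD. The starts are those of RefSeq, which for Mmp12 lies within the longer gene model of GENCODE given above. In the windows of Il1rn and Itgax, 7 and 3 bases lie in GENCODE exons of these genes. The windows are chr2:24336610-24336859 (plus strand) for Il1rn, chr9:7347124-7347373 (plus) for Mmp12, chr9:7272264-7272513 (plus) for Mmp13, chr7:128129300-128129549 (plus) for Itgax and chr6:83677858-83678107 (minus) for Cd207.
Il1rn: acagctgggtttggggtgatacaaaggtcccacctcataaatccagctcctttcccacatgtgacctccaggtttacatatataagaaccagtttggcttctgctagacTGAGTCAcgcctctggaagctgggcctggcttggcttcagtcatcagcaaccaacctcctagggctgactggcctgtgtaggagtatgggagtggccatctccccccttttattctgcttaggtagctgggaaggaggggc
Mmp12: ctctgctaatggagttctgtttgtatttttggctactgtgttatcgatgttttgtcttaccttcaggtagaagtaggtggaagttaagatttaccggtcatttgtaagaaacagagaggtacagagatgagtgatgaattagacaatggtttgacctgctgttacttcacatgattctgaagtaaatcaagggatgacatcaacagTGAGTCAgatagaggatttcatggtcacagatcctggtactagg
Mmp13: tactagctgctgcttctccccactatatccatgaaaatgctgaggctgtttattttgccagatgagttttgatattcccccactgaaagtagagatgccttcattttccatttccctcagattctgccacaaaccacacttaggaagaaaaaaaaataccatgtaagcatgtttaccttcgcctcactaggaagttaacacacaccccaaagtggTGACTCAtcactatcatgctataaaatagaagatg
Itgax: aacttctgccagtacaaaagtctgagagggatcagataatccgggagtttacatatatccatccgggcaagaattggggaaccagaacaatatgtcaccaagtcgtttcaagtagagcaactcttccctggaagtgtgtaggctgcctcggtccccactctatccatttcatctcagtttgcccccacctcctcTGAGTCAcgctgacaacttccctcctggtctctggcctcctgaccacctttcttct
Cd207: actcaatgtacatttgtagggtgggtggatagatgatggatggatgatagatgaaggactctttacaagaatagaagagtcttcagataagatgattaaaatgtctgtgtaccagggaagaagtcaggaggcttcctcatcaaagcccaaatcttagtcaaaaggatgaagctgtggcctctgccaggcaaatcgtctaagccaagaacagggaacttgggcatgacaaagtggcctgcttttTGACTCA
The last matched base lies 135 bases before the RefSeq start of Il1rn, 38 before that of Mmp12, 29 before that of Mmp13, 50 before that of Itgax and directly before that of Cd207. Of 38 named genes looked up, 28 had an entry, with 32 windows since some have several starts, and 5 of these windows, those of the 5 genes, held a match on either strand, against 4.46% of the 32851 promoters in the table. The letters GAGGAAGT of PU.1 were in 1 of the 32 windows (2.44% of all promoters), that of another RefSeq start of Mmp12 than the one printed, and neither TCACGTGA of the M-box (0.785%) nor the PPAR direct repeat, AGGTCA given again after 1 free base (0.0335%), was in any. A match is no measured binding site, and no match says only that these letters are not in the window. No entry was found for 10 genes: Lpl, Arid4a, Ocstamp, Gm5096, P2ry6, Wac, Il10, Atp6v0d2, Angptl4 and Fabp4.

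The 13 genes lower without SD replicate 7 included Cd207, Gna15, Dapp1, Hhex, P2ry6 and Pak1, besides Arid4a, Ripor1 and Klf3. Cd207 (chr6:83671215-83677857, minus strand), which encodes the lectin langerin that Kupffer cells of mice express, had the largest difference of them. Cd207 was measured at 482, 336, 399, 651, 524 and 399 CPM in SD replicates 1 to 6, at 275 in SD replicate 7 and at 271, 152, 104, 122 and 192 in the WD replicates. WD replicate 1 and SD replicate 7 nearly met, and the diets did not overlap. The log2 difference was -1.38 ± 0.32 with all samples (edgeR adjusted p = 0.0938) and -1.47 ± 0.33 without SD replicate 7 (edgeR adjusted p = 0.0235). The others moved by less than 1 on the log2 scale. Gna15, a G protein alpha subunit of blood cells, differed by -0.65 ± 0.12 (log2), Dapp1, an adaptor downstream of PI3K, by -0.46 ± 0.094, and Hhex, a homeobox factor, by -0.46 ± 0.10, each without SD replicate 7. P2ry6, the receptor for UDP, was 139 to 167 CPM over all 7 SD samples and 104 to 127 on WD, and Pak1, a kinase downstream of RAC, 158 to 195 and 135 to 155. For these 2 the diets did not overlap with SD replicate 7 included. Atmin, Slc39a13, Wac and Top1 made up the rest.

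Genes of lipid uptake and storage leaned towards higher values on the WD. Of the 32 genes of fatty acid uptake and lipid droplets, 1 was called, Lpl, while 5 were higher and 1 lower at an unadjusted p under 0.05, against 5.26% and 3.47% of all genes. The median difference of the list was 0.24 on the log2 scale, against 0.016 over all genes, and 25 of its genes were higher, against 53.3% of all genes. With SD replicate 7 left out, 5 were called higher and 0 lower, against 0.529% and 0.0969% of all genes, and the median was 0.34. The median was 0.45 against SD replicates 1 to 3, 0.077 against SD replicates 4 to 7 and 0.29 against SD replicates 4 to 6. The 26 hepatocyte markers had a median of 0.46 with all samples, 0.92 without SD replicate 7, and 1.89, -0.0019 and 0.45 against the same 3 sets of SD samples, and their part in this list was not tested. Plin2, which encodes the coat protein of lipid droplets, was 311, 340.0, 307, 323, 351 and 351 CPM in SD replicates 1 to 6, 446 in SD replicate 7 and 582, 413, 419, 527 and 481 on WD. SD replicate 7 overlapped the WD samples. Its log2 difference was 0.48 ± 0.12 (edgeR adjusted p = 0.128), and 0.55 ± 0.12 without SD replicate 7 (edgeR adjusted p = 0.0213). Angptl4, a secreted inhibitor of lipoprotein lipase and a known target of PPARs, was 4.77 to 13 CPM on SD and 12.0 to 22.8 on WD, a log2 difference of 1.29 ± 0.29 (edgeR adjusted p = 0.0938, and 0.0104 without SD replicate 7). The other 2 genes called without SD replicate 7 were Ppara and Cidec, named after their values were seen. Ppara, a nuclear receptor for fatty acids, was at most 0.602 CPM in SD replicates 1 to 6, 7.66 in SD replicate 7 and 1.47 to 4.40 on WD, and its r with the hepatocyte markers, 0.691, was just under the limit for a follower. Cidec, a lipid droplet protein, was at 0 in SD replicates 1 to 6, 2.13 CPM in SD replicate 7 and 0 to 3.69 on WD, and with all samples but WD replicate 3 its log2 difference was -1.13. Cd36, the scavenger receptor that takes up fatty acids, differed by 0.40 ± 0.17 (log2) and did not pass (edgeR adjusted p = 0.509), nor did the fatty acid carrier Fabp4 at 0.88 ± 0.38 (edgeR adjusted p = 0.506).

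Other lists of lipid metabolism held no called gene, with or without SD replicate 7. Of 20 genes of cholesterol export, 2 were higher and 1 lower at an unadjusted p under 0.05 (5.26% and 3.47% of all genes), with a median of 0.094. Abca1, the cholesterol exporter and best known LXR target, was 378 to 546 CPM on SD and 415 to 1054 on WD, with its highest value in WD replicate 1 (log2 difference 0.44 ± 0.22, edgeR adjusted p = 0.572). Mylip, a ubiquitin ligase and LXR target, stood at a log2 difference of 0.38 ± 0.12 (edgeR adjusted p = 0.344). Of 26 genes of sterol synthesis, 21 were lower, against 46.7% of all genes, with a median of -0.046 (edgeR adjusted p 0.474 or higher). Srebf2, the main activator of this pathway, was at a log2 difference of -0.35 ± 0.14. At an unadjusted p under 0.05, 1 of the 26 was higher and 4 lower (5.26% and 3.47% of all genes). With SD replicate 7 left out, 15 of the sterol genes were lower, against 6239 of all 13421 genes, with a median of -0.0083. Their median was 0.034 against SD replicates 1 to 3 and -0.19 against SD replicates 4 to 7, so that its sign turned with the SD samples. Of 24 genes of fatty acid oxidation, 20 were higher, against 53.3% of all genes, with a median of 0.13, Acot2 at 0.50 ± 0.17 and Etfb at 0.29 ± 0.10 (log2). At an unadjusted p under 0.05, 3 of them were higher with all samples (5.26% of all genes) and 11 without SD replicate 7 (7.64%), and none lower. The median was 0.26 against SD replicates 1 to 3 and 0.0036 against SD replicates 4 to 7, where the hepatocyte markers stood at 1.89 and -0.0019, and their part was not tested. In fatty acid synthesis, 6 of 15 were higher, against 53.3% of all genes. Without SD replicate 7, 9 were higher, against 7177 of all 13421 genes.

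Of the 22 lipid-associated macrophage genes, none was called with all samples, 8 were higher and 0 lower at an unadjusted p under 0.05 (5.26% and 3.47% of all genes), and 20 were higher in value (53.3% of all genes). The median was 0.18 on the log2 scale with all samples, 0.24 without SD replicate 7, 0.32 against SD replicates 1 to 3 and 0.16 against SD replicates 4 to 7. Without SD replicate 7, 6 of them were called, namely Cd63, Mmp12, Gpnmb, Itgax, Cd9 and Atp6v0d2, against 0.529% of all genes. Itgax, which encodes the integrin CD11c, was 5.10, 7.98, 5.75, 7.25, 7.59 and 4.98 CPM in SD replicates 1 to 6, 15.5 in SD replicate 7 and 16.1, 26.8, 28.6, 16.2 and 12.0 on WD. Cd9, a tetraspanin of these macrophages, was 11.5, 13.2, 8.26, 24.6, 17.9 and 11.1, 31.3 and 29.9, 42.0, 50.2, 28.4 and 43.5 CPM in the same order. In each gene SD replicate 7 lay within the WD range. Itgax is also known from dendritic cells, and the 20 lymphocyte and dendritic cell markers summed to 46.0 to 152 CPM on SD and 39.5 to 164 on WD. Of the 13 of them tested, 10 were higher, against 53.3% of all genes, with a median of 0.56. That median was 0.39 without SD replicate 7, 0.53 against SD replicates 1 to 3 and 0.85 against SD replicates 4 to 7. None was called in edgeR, with 1 and, without SD replicate 7, 2 higher at an unadjusted p under 0.05 (5.26% and 7.64% of all genes). The part of these markers in the list was not tested. Trem2, the lipid-sensing receptor after which such macrophages are often named, was 31.4, 31.0, 27.3, 49.2, 44.6, 18.1 and 37.0 CPM in SD replicates 1 to 7 and 85.3, 34.6, 108, 57.2 and 66.4 on WD. Trem2 overlapped between the diets and did not pass (log2 difference 1.04 ± 0.33, edgeR adjusted p = 0.344, and 0.172 without SD replicate 7). The lysosome list as such, with 30 genes, had a median of -0.00030 and no call.

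Inflammatory cytokines and NF-kB targets leaned towards lower values on the WD, most against SD replicates 1 to 3. No gene of them was called with all samples or without SD replicate 7. At an unadjusted p under 0.05, 1 of 33 was higher and 9 were lower (5.26% and 3.47% of all genes). The median was -0.30 on the log2 scale (smallest edgeR adjusted p = 0.413). The count without SD replicate 7 was 14 lower at an unadjusted p under 0.05, against 4.09% of all genes (11.7% in either direction), with a median of -0.38 (smallest edgeR adjusted p = 0.146). Tnf was 159, 137, 42.0, 22.6, 43.7, 21.1 and 7.37 CPM in SD replicates 1 to 7 and 9.73, 33.2, 22.3, 15.4 and 9.80 on WD. Il1b, which encodes interleukin-1 beta, the ligand that Il1rn opposes, was 1433, 1768, 874, 518, 447, 324 and 144 on SD and 136, 424, 217, 681 and 396 on WD. The high values of both lay in SD replicates 1 and 2, the libraries with the highest early-response sums. Tnf was called lower against SD replicates 1 to 3 (edgeR adjusted p = 0.0310), and Nfkbiz, Il6 and Ccl2 were each called lower in 1 of 13 settings. Against SD replicates 1 to 3 the log2 differences were -2.65 for Tnf and -1.88 for Il1b, and against SD replicates 4 to 7 they were -0.39 and 0.050. The median of the whole list was -0.80 in the first, 0.045 in the second and -0.11 against SD replicates 4 to 6, so that its sign in the second set turned with SD replicate 7. The list of interleukin-1 antagonists and anti-inflammatory genes, to which Il1rn belongs, leaned the same way. Il1rn was its only called gene with all samples or without SD replicate 7. With all samples, 11 of its 15 genes tested were lower, against 46.7% of all genes, and the median was -0.38. At an unadjusted p under 0.05, 2 were higher and 4 lower (5.26% and 3.47% of all genes). The median was -0.51 without SD replicate 7, with 1 higher and 9 lower at that limit (7.64% and 4.09% of all genes), -0.50 against SD replicates 1 to 3 and -0.13 against SD replicates 4 to 7. The anti-inflammatory cytokine Il10 stood at -1.59 and 0.041 against these 2 sets, and was called lower in 1 of 13 settings. The immediate-early and heat-shock list had 6 of 24 genes lower at an unadjusted p under 0.05 (3.47% of all genes), a median of -0.71, and medians of -1.41 and 0.044 against the SD samples of the first and second naming scheme. When SD replicate 7 was left out, 14 of its genes were lower at an unadjusted p under 0.05 (4.09% of all genes) and the median was -0.88. The part of the early response in the values of the cytokine and antagonist lists was not tested.

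Of 26 genes that define Kupffer cells, none was called with all samples, and 18 were lower in value, against 46.7% of all genes. At an unadjusted p under 0.05, 2 were lower, Cd207 and Id3, and none higher, against 3.47% and 5.26% of all genes. Omitting SD replicate 7, 2 were lower at that limit (4.09% of all genes) and 1, Cd207, was called (0.0969% of all genes called lower), and the median was -0.079 against -0.10 with all samples. Id3, a regulator of Kupffer cell identity, was 593 to 1400 CPM on SD and 543 to 872 on WD (log2 difference -0.50 ± 0.19, edgeR adjusted p = 0.453). Clec4f differed by 0.011 ± 0.34 (log2), with a 95% interval of -0.67 to 0.69, and Timd4 by -0.080 ± 0.31, with an interval of -0.71 to 0.55. These intervals use the spread within all groups of the series. Since the cells were sorted on these 2 proteins, their values describe the gate. MHC class II genes were lower in 11 of 12, against 46.7% of all genes, with a median of -0.21 (smallest edgeR adjusted p = 0.627). Interferon-stimulated genes were at a median of -0.033 and alternative activation genes at -0.080. Each of these lists had 0 genes called in edgeR and 0 at an unadjusted p under 0.05. These medians were -0.29, -0.065 and 0.034 without SD replicate 7, with 0 called. At an unadjusted p under 0.05, 3 interferon-stimulated genes were then lower (4.09% of all genes) and 2 alternative activation genes higher (7.64%). In 2 lists that were drawn up around the called repressors, and so hold them by construction, Klf3 was the only called gene of 12 Kruppel-like factors and Arid4a of 24 genes of repressor complexes, where 0.0224% of all genes were called lower. The paralogue and partner genes of Arid4a, Arid4b (log2 difference -0.30 ± 0.14, edgeR adjusted p = 0.568) and Sap30 (-0.23 ± 0.10, edgeR adjusted p = 0.518) did not pass. Iron recycling, endoplasmic reticulum stress, NRF2, glycolysis and hypoxia, and cell cycle lists held no call with all samples. With SD replicate 7 left out only the glycolysis and hypoxia list held 1, Egln3, an oxygen-sensing prolyl hydroxylase named after its values were seen, which was at most 0.0738 CPM in SD replicates 1 to 6, below the level of 3 counts, 1.35 in SD replicate 7 and 0 to 1.34 on WD (edgeR adjusted p = 0.0456, where 0.529% of all genes were called higher, and 0.673 with all samples). Of the 27 cell cycle genes, 25 were higher in value, against 53.3% of all genes, and 1 at an unadjusted p under 0.05, against 5.26%. Their median was 0.28, 0.14 without SD replicate 7, -0.092 against SD replicates 1 to 3 and 0.60 against SD replicates 4 to 7, so that its sign turned with the SD samples.

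The ResKCs of 24 weeks share no sample with those of 12 weeks and therefore give genes that were chosen elsewhere. At 24 weeks, 1169 genes were called (8.71%), and 450 (3.35%) also passed a log2 difference over 1, of which 319 were higher and 131 lower. Of the 319, 285 (89.3%) were higher at 12 weeks too, against 53.3% of all genes. At an unadjusted p under 0.05, 85 were so, against 5.26% of all genes. The 55 hepatocyte followers among the 319 were higher at 12 weeks in 53 (96.4%), and the other 264 in 232 (87.9%). Of the 131, 102 (77.9%) were lower at 12 weeks, against 46.7% of all genes, and 16 at an unadjusted p under 0.05, against 3.47%. The median log2 difference of the 319 was 0.60 at 12 weeks and 2.18 at 24 weeks, and that of the 131 was -0.37 and -1.61. The 24-week values are those that chose the genes. With SD replicate 7 set aside, 290 of the 319 were higher with a median of 1.03, against 7177 of all 13421 genes. Of the 131, 102 were then lower with a median of -0.43, against 6239 of all 13421. The early-response sum also differed at 24 weeks, ranging from 4328 to 16851 CPM on SD and from 3099 to 7709 on WD, with 10 of its 24 genes called lower, against 3.87% of all genes, and 10 of the 131 genes are among the 24. The hepatocyte sum was 880.0 to 2751 CPM on SD and 1980 to 6232 on WD at 24 weeks. Their part in the shared direction was not tested.

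**Figure D5:**
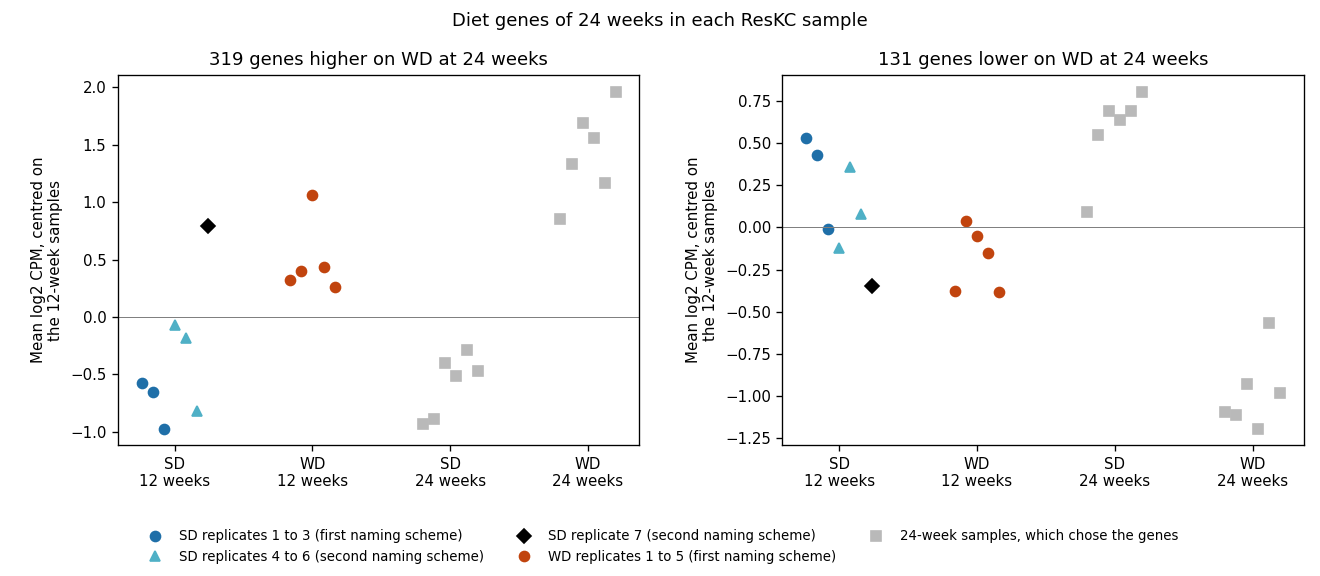
Mean log2 CPM of the 319 genes higher (left) and the 131 lower (right) on the WD at 24 weeks in each ResKC sample, centred on the mean of the 12-week samples (y axis), by diet and time. In the left panel SD replicate 7 stands at 0.79, within the 12-week WD samples, and the 24-week samples in grey are those that chose the genes.

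As a mean over the 319 genes, centred on the 12 samples, SD replicates 1 to 6 lay at -0.97 to -0.068 on the log2 scale and the WD replicates at 0.26 to 1.06, while SD replicate 7 lay at 0.79. WD replicate 3 held the highest value and the other 4 WD samples lay below SD replicate 7. Over the 131 lower genes SD replicates 1 to 6 lay at -0.12 to 0.53, SD replicate 7 at -0.35 and the WD replicates at -0.38 to 0.036, so that here the diets overlapped. Over the 264 of the 319 genes that did not follow the hepatocyte markers, the ranges were -0.74 to -0.12 for SD replicates 1 to 6 and 0.27 to 0.90 for the WD, with SD replicate 7 at 0.55. Of all 450 genes, SD replicate 7 was nearer to the WD mean than to the mean of the other SD samples in 72.9%, against 51.7% of all genes tested, and the other 6 SD samples in 24.7% to 50.2%. At 24 weeks the WD samples reached 0.86 to 1.96 on the same scale, and the SD samples -0.93 to -0.29. On this scale the 12-week WD samples lay between SD replicates 1 to 6 and the 24-week WD samples. WD replicate 3 was the exception and exceeded the lowest of the latter. The 24-week samples chose these genes, so this order is partly set by that choice.

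Many of the genes called higher at 12 weeks without SD replicate 7 were also higher on the WD at 24 weeks. Of the 45 higher genes that did not follow the hepatocyte markers, 41 were higher and 32 were called higher at 24 weeks, against 4.84% of all genes, with a median difference of 2.42. Of the 26 followers, 14 were called higher at 24 weeks, against the same 4.84%. The part of hepatocyte RNA in these calls was not tested. Mmp12 stood at 11.1 ± 4.20 CPM on SD and 518 ± 275 on WD at 24 weeks (s.d., n = 6 each), a difference of 5.55 ± 0.73 on the log2 scale (edgeR adjusted p = 8.51e-06). Gpnmb stood at 2.17 ± 1.11 and 191 ± 168 CPM, a log2 difference of 6.47 ± 0.84 (edgeR adjusted p = 7.25e-06). The step between the time points did not pass its own test for either gene (24 minus 12 weeks, 2.93 ± 0.89 for Mmp12, edgeR adjusted p = 0.120, and 4.00 ± 1.04 for Gpnmb, edgeR adjusted p = 0.0743). The log2 difference of Lpl was 0.72 at 12 weeks and 0.68 at 24 weeks (difference -0.037 ± 0.20, edgeR adjusted p = 0.964), and that of Il1rn was 0.88 and 1.83 (difference 0.95 ± 0.24, edgeR adjusted p = 0.0694). Cd207 fell at 24 weeks, with a log2 difference of -2.23 ± 0.32 (edgeR adjusted p = 3.14e-05).

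The 3 genes that fell at 12 weeks were not called at 24 weeks. On the log2 scale Klf3 differed there by -0.093 ± 0.069, Arid4a by 0.13 ± 0.084 and Ripor1 by 0.057 ± 0.087. Of the 13 genes lower without SD replicate 7, 6 were lower and 2 were called lower at 24 weeks, Cd207 and P2ry6, against 3.87% of all genes. Over all genes, the diet effect differed between the time points in 38 (0.283%), 9 with a larger (0.0671%) and 29 with a smaller value (0.216%) at 24 weeks. Without SD replicate 7 these were 49 (0.365%), 16 larger (0.119%) and 33 smaller (0.246%). Arid4a was among the 9, with a difference of 0.57 ± 0.12 (edgeR adjusted p = 0.0320). Arid4a was 58.8 ± 3.22 CPM on SD and 64.3 ± 3.59 on WD at 24 weeks. For Klf3 and Ripor1 the difference between the time points did not pass (0.26 ± 0.10, edgeR adjusted p = 0.207, and 0.50 ± 0.12, edgeR adjusted p = 0.0630). Gclc, the catalytic subunit of the enzyme that starts glutathione synthesis, was at a log2 difference of -0.21 ± 0.084 at 12 weeks and 0.43 ± 0.082 at 24 weeks, a difference of 0.64 ± 0.12 (edgeR adjusted p = 0.00934).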

How the data were processed

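RNA of sorted liver macrophages was sequenced as single reads of 75 bases. Per the labels and the study's methods, the authors mapped reads to mm10 with HISAT2 2.2.0, used SAMtools 1.10 and FastQC 0.11.9 and counted with featureCounts 2.0.0. The deposited values are raw counts per gene and sample. The annotation, the strand setting and the treatment of reads with several matches are not given in the sources used here. Groups were taken from the titles. Genes over 1 CPM in at least 5 of 35 samples (13421) were tested with edgeR 4.0.16 (R 4.3.3): TMM factors, quasi-likelihood test, 6 group means, Benjamini-Hochberg adjustment, and a call at an adjusted p under 0.05. CPM are TMM-scaled and log2 CPM have a prior count of 2. The authors used limma on these counts, and limma-voom 3.58.1 and DESeq2 1.42.0 were alternatives. Intervals cover counting and replicate error within the model and floors counting error only. Coordinates are from GENCODE M21. On simulated counts for the 12-week comparison (13421 genes), 67 of 100 genes changed 2-fold and 87 of 100 changed 4-fold were recovered, with 10 false calls. These counts were drawn independently for each gene. They lack the shifts of SD replicate 7, naming scheme, hepatocyte and early-response sums, so the rates need not hold for the real samples. No 2 replicates agreed within sampling noise (chi-square of 18.4 or more per degree of freedom over 31 pairs). The samples, lists, named genes (called genes, the 12 of smallest p in each direction without SD replicate 7, up to 4 of each list, 8 genes the study discusses and the 2 sort genes) and tests were chosen with earlier results of these data known. The motif search was added after the values were seen. Some genes of the lists are not reported here.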

Additional observations from a re-analysis of the deposited data

Results flagged for a closer look

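Over 86 sets of values from 1 diet at 12 weeks (34 genes, 7 marker sums and 2 means over genes in each diet), Dixon's test at the 5% level set a sample apart in 5. Chance alone sets about 5% of such sets apart, but this rate does not apply to SD replicate 7. The genes tested include those chosen with it left out, and it was set apart from its values, so the gaps of this sample are a description. SD replicate 7 stood above the other SD samples in Mup18 (6.95 CPM), Mup9 (4.96 CPM), Gm5096 (3.83 CPM) and Plin2 (446 CPM). WD replicate 3 stood above the other WD samples in the mean over the genes higher at 24 weeks (1.06 on the log2 scale). The hepatocyte sums of these 2 libraries, 6879 and 6620 CPM, were the highest of the 12, and their part in the values was not tested.

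The effect of the WD differed between 24 and 12 weeks, by the test of that difference, in 3 of the genes named or called here. The difference, 24 minus 12 weeks, was 0.57 for Arid4a (edgeR adjusted p = 0.0320), 0.64 for Gclc (edgeR adjusted p = 0.00934) and -2.11 for Gm42856 (edgeR adjusted p = 0.00934), a predicted gene chosen after its values were seen, which was at 0.813 to 1.71 CPM on SD and 2.17 to 3.32 on WD at 12 weeks.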

How the results depend on the processing

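The count of 5 genes at 12 weeks held with the filter set on the 12 samples (5), a robust dispersion (5) and the hepatocyte covariate (6, but none of the 5). It was 44 with DESeq2 and 1 (Mmp12) with limma-voom, 3 with the naming scheme as a covariate, and 0 in edgeR with RLE factors (1193 genes at an unadjusted p under 0.05), library size alone (1204), no filter (2178), the early-response covariate (1061), only the 12 samples (1166), and only the 24 ResKC samples (1233). It was 234 against SD replicates 1 to 3, 0 against SD replicates 4 to 7 (1088) or 4 to 6 (1124), and 0 without WD replicates 1 and 2 (1291), whose alignment numbers lie beside those of 24-week samples. With a log2 difference over 1 it was 0, and at an adjusted p under 0.1 it was 27. Leaving out each sample in turn gave 0 to 84, and 84 only without SD replicate 7. Without SD replicate 7 it was 208 with DESeq2, 14 with limma-voom, 78 with the naming scheme, 26 with the hepatocyte covariate and 45 with the early-response covariate. The replicate block gave 86 calls at 12 weeks, with or without SD replicate 7, which the block itself sets aside because no other group has a replicate 7. The numbers do not pair the samples: same-numbered samples correlated at -0.36 to 0.024 over 5 pairs, and 0 of 5 WD samples correlated best with their own number.

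The 5 called genes kept their direction in all of 13 settings with adjusted p from 0.00176 to 0.325, and with each of the 12 samples left out, with adjusted p from 0.00148 to 0.191. With the early-response covariate their log2 differences were 0.65 for Lpl, 0.87 for Il1rn, -0.35 for Klf3, -0.39 for Arid4a and -0.48 for Ripor1 (edgeR adjusted p from 0.0702 to 0.0888). The difference between time points, 38 genes, was 192 with DESeq2, 72 with the hepatocyte and 63 with the early-response covariate, 87 with the naming scheme, 11 with no filter, 21 with the replicate block and 10 to 85 with each 12-week sample left out. The count of 24 weeks, 1169, was 544 with the early-response covariate. The means over the 24-week genes moved by less than the spread between samples. Among the named genes, directions reversed in values not called with all samples: against SD replicates 4 to 7, Il6 (0.20), Il10 (0.041), Egr2 (0.11), Klf6 (0.0043) and Il1b (0.050); Clec4f with the hepatocyte (-0.028) or early-response covariate (-0.12), no filter (-0.0063), only the 12 samples (-0.0054), the replicate block (-0.011) and samples left out (range -0.047 to 0.087); Timd4 with the naming scheme (0.014); and Cidec without WD replicate 3 (range with samples left out -1.13 to 6.52). The cause was not tested for any of these. The alternatives beyond the planned ones (24 ResKC samples, SD replicates 4 to 7, WD replicates 1 and 2, combinations with SD replicate 7 left out, the 24-week count, the 24-week genes that do not follow the hepatocyte markers) were chosen after seeing the data.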
